A study of Homo sapiens with 12 samples.

Results

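The p53 target genes described here are 32 genes known as direct transcriptional targets of the tumour suppressor p53, chosen by gene symbol from a list, out of 60583 genes counted. By known role they comprise 6 genes of cell cycle arrest, 12 of cell death, 4 of DNA repair, 6 of metabolism and redox balance and 4 of feedback and survival. TT-seq, which biotinylates, pulls down and sequences RNA labelled with 4-thiouridine, was used to read transcription in human U2OS osteosarcoma cells 48 h after transfection of an siRNA. Each of the 4 groups had 3 libraries: U2OS with siCtrl, the control siRNA; U2OS with siINTS11; U2OS-AsiSI with siCtrl; and U2OS-AsiSI with siINTS11. The INTS11 protein is the endonuclease of Integrator, which cuts nascent RNA and releases RNA polymerase II near promoters. U2OS-AsiSI cells (genotype AsiSI-ER) carry the restriction enzyme AsiSI joined to an oestrogen receptor domain, and both of their groups had OHT (4-hydroxytamoxifen), the ligand that brings the enzyme to DNA, for 1 h. No treatment is listed for the U2OS groups, so cell line, enzyme and OHT cannot be told apart in any comparison of U2OS-AsiSI with U2OS.

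The p53 protein is kept low by MDM2, a ubiquitin ligase whose own gene p53 switches on, and DNA breaks free p53 from MDM2 through the kinases ATM and CHEK2. Stabilised p53 binds paired half-sites in promoters and first introns and raises genes that halt the cell cycle (CDKN1A), open the mitochondrial membrane or build death receptors (BBC3, BAX, FAS), recognise damaged DNA (XPC, DDB2), restrain growth signalling (SESN1) or shut the response down again (MDM2, PPM1D).

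RefSeq promoter windows (GRCh38.p14, 250 bases before to 50 bases after an annotated start) were matched to 25 of the 32 genes, all but GADD45A, TNFRSF10A, TNFRSF10B, TNFRSF10C, PHLDA3, TP53INP1 and RRM2B. They were searched for the p53 half-site consensus, 10 bases that are their own reverse complement, so that 1 search covers both strands. A full site, meaning adjoining half-sites with at most 2 mismatches in all and a spacer of at most 1 base, was found in 4 of the 25 genes and in 1.69% of 27305 genes with a window. An exact half-site was found in 8 of the 25 and in 8.06% of all genes. The stretches below are shown because 4 hold a full site and because 6 of the 9 genes (DDB2, FAS, MDM2, FDXR, RPS27L and SESN1) had an siINTS11 response that differed between the cell lines. That response differed for 11 of all 29 members tested. Among all genes tested it was lower in U2OS-AsiSI for 3.10% and higher for 0.762%. A link between the sites and that response was not tested. Capitals mark the matched bases, and each sequence runs 5′ to 3′ along the gene's strand.
DDB2: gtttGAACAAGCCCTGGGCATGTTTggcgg
AEN: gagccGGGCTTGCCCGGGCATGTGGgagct
FAS: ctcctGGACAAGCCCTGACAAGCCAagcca
MDM2: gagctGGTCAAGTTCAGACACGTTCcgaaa
FDXR: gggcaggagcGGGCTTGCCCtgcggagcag
EI24: cgtgcggcccGGGCATGCCCagtgcgggcg
PLK2: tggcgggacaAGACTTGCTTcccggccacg
RPS27L: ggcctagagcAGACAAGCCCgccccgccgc
SESN1: attgtcgtctGGACAAGTCTccacaagtca
The DDB2 stretch (chr11:47214975-47215004, plus strand) lies in an exon outside the coding part and was the match with 0 mismatches and a spacer of 1 base. The AEN (chr15:88621301-88621330, plus strand), FAS (chr10:88991304-88991333, plus strand) and MDM2 (chr12:68808918-68808947, plus strand) sites each had 2 mismatches and no spacer. By GENCODE 29 they lie upstream of the gene, in an exon outside the coding part and in an intron, and the MDM2 site is 746 bases past the start of the counted gene. Half-sites alone were found in FDXR (chr17:74872986-74873015, minus strand), EI24 (chr11:125569457-125569486, plus strand) and RPS27L (chr15:63157517-63157546, minus strand), each in an exon outside the coding part. That of PLK2 (chr5:58460199-58460228, minus strand) lies upstream of the gene, and that of SESN1 (chr6:109009018-109009047, minus strand) lies in an intron, at the start of a shorter transcript 85782 bases into the gene. A match describes the letters and does not show binding by p53.

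Library totals ran from 20704611 to 38065726 reads counted in genes, and the 3 U2OS-AsiSI siINTS11 libraries, at 26579035, 20704611 and 26175227, were the shallowest. Levels are given as CPM, the reads of a gene scaled to library size after TMM adjustment (a factor per library that centres the bulk of genes). INTS11, the siRNA's target, held 10.1, 8.87 and 10.1 CPM in the U2OS libraries with siCtrl and 7.85, 7.06 and 7.18 in those with siINTS11, a fall of new RNA that passed the test (log2 fold change -0.42, SE 0.09, edgeR adjusted p 6.08e-05). In U2OS-AsiSI it held 9.63, 10.99 and 9.82 CPM with siCtrl and 9.01, 9.33 and 9.48 with siINTS11. There the groups did not overlap and the test was not passed (-0.13, SE 0.08, adjusted p 0.172, and 0.06 when scaled by library totals alone). Under siINTS11, new INTS11 RNA was higher in U2OS-AsiSI than in U2OS (0.37, SE 0.08, edgeR adjusted p 0.000457). Mature INTS11 mRNA and protein were not measured. Of 10 osteoblast and mesenchymal markers, 6 reached 1 CPM in each group, and COL1A2, SP7, BGLAP and TWIST1 did not. Their summed level in U2OS was 1073 to 1133 CPM (siCtrl) and 822 to 872 (siINTS11), and in U2OS-AsiSI 973 to 978 (siCtrl) and 765 to 829 (siINTS11). The 5 blood cell markers were all under 1 CPM, and of 5 epithelial markers KRT5, KRT14 and KRT19 were. In bulk RNA, fewer cells making a transcript and less of it per cell cannot be told apart.

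Nascent reads covered 28 of the 32 genes at 18 or more per library, and the other 4 held few or none. Per kilobase of gene, averaged over the 12 libraries, the densest were GADD45A (14.7 CPM per kb), a stress sensor that binds CDK1 and PCNA, the nuclease gene AEN (12.4), CDKN1A (10.5), which encodes the cyclin-dependent kinase inhibitor p21, and the polo-like kinase gene PLK2 (10.3). Next came PMAIP1 (8.44), PHLDA3 (7.71), BAX (6.46), CCNG1 (5.6) and TRIAP1 (5.46), then PLK3 (4.25), TNFRSF10B (4.08), RRM2B (3.82), PPM1D (3.67) and MDM2 (3.64). The genes of repair and several of death lay between 1 and 4, among them DDB2 (3.35), BBC3 (2.9), POLH (2.07), XPC (1.73), ZMAT3 (1.6) and FAS (1.16). SESN1, a long gene, was at 0.545 CPM per kb, GDF15 at 0.157 and SESN2 at 0.0446. Neighbours in that order differ by little: CDKN1A ran from 8.77 to 12.5 CPM per kb and PLK2 from 9.96 to 10.6 across the group means, so their order depends on the group.

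The TRAIL receptor genes were uneven. TNFRSF10B, which encodes the receptor DR5, held 168 to 227 CPM in all libraries. TNFRSF10A, its relative, went in U2OS from 1, 1 and 1 reads (siCtrl) to 7, 9 and 5 (siINTS11), and in U2OS-AsiSI from 2, 1 and 3 to 11, 10 and 13. Every siINTS11 library was thus above every siCtrl library. Summed over libraries and set against scaled depth, the siINTS11 to siCtrl ratio was 6.72 in U2OS (95% exact binomial interval 2.01 to 35.2) and 6.24 in U2OS-AsiSI (2.59 to 18.2), intervals that cover counting error only. The decoy receptor gene TNFRSF10C held 1 to 7 reads per library, and 87.2% of its span is overlapped on its own strand by other annotated genes. SPATA18, of mitochondrial quality control, held 0 to 6. TIGAR, which encodes a fructose bisphosphatase that diverts sugar into the pentose phosphate path, is listed at 0 in all 12 libraries. Its whole span lies within AC008012.1 on the same strand, which held 89 to 309 reads per library, and how shared reads were assigned is not given in the sources used here.

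**Figure D1:**
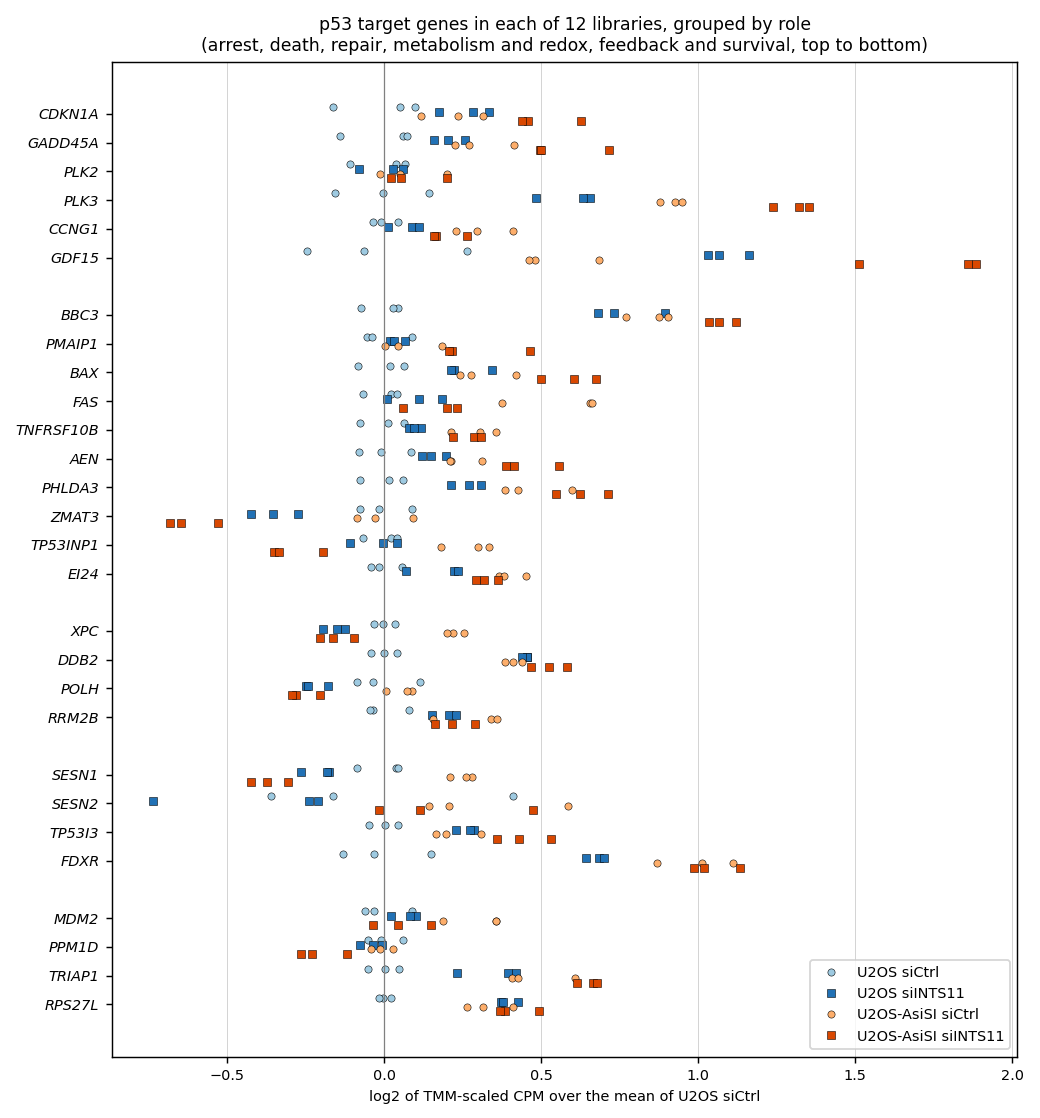
Each point is 1 library and each row a p53 target gene; the x axis is the log2 of the TMM-scaled CPM over the mean of the 3 U2OS siCtrl libraries, for the 28 genes with 18 or more reads in every library. Light points are siCtrl and dark squares siINTS11, blue for U2OS and orange for U2OS-AsiSI; BBC3, FDXR and PLK3 stand apart from U2OS siCtrl in all 3 other groups, and ZMAT3 and SESN1 lie lowest in U2OS-AsiSI siINTS11.

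Under siCtrl, U2OS-AsiSI cells with OHT held more new RNA of the p53 targets than U2OS cells. Of the 28 members tested, 22 rose and 0 fell, where 17.8% of all 19935 genes tested rose and 17.2% fell (edgeR quasi-likelihood test, Benjamini-Hochberg adjusted p under 0.05). At an unadjusted p under 0.05, 22 members passed, all higher, as did 8709 of the 19935 genes in either direction, and DESeq2 also gave 0 lower. TIGAR, SPATA18 and TNFRSF10C had too few reads to be tested in any comparison, and TNFRSF10A in this one and in that of siRNAs in U2OS. The median log2 fold change of the members was 0.31, that of all genes 0.01. Shorter genes were higher in general: by decile of gene span, the median of protein-coding genes ran from 0.21 (shortest) to -0.14 (longest). CDKN1A (0.23), AEN (0.25) and FDXR (1.00) lie in a decile with a median of 0.19, and MDM2 (0.31) in one of -0.02. The part of span in the members' rise was not tested. The rise ran through the roles: 5 of 6 arrest genes, 8 of 10 tested death genes, 3 of 4 repair genes, 3 of 4 tested metabolism genes and 3 of 4 feedback genes, with medians from 0.26 for repair to 0.32 for feedback.

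FDXR, which encodes ferredoxin reductase of mitochondrial iron-sulphur metabolism (chr17:74862497-74873031), had the largest change. It held 15.1, 16.2 and 18.3 CPM in U2OS and 35.7, 30.2 and 33.3 in U2OS-AsiSI, a log2 fold change of 1.00 (SE 0.07, adjusted p 1.8e-12). The groups did not overlap. PLK3, a polo-like kinase gene (chr1:44800377-44805990), held 13.9, 12.5 and 15.4 CPM in U2OS against 26.4, 25.6 and 26.8 in U2OS-AsiSI (log2 fold change 0.93, SE 0.07, adjusted p 3.91e-12). BBC3 encodes PUMA, a BH3-only protein that triggers death at mitochondria (chr19:47220822-47232766). Its libraries held 21.6, 19.9 and 21.3 CPM in U2OS and 38.4, 35.7 and 39.1 in U2OS-AsiSI (0.86, SE 0.06, adjusted p 7.58e-13). In both genes each U2OS-AsiSI library was well above each U2OS library.

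The death receptor gene FAS (chr10:88990531-89017059) held 25.1, 26.7 and 27.1 CPM in U2OS and 41.4, 34.1 and 41.6 in U2OS-AsiSI (log2 fold change 0.57, SE 0.06, adjusted p 7.62e-08). DDB2, whose product finds ultraviolet lesions for nucleotide excision repair (chr11:47214465-47239240), held 64.7, 62.9 and 66.4 CPM against 85.9, 84.4 and 87.7 (0.42, SE 0.04, adjusted p 9.15e-09). MDM2 (chr12:68808177-68850686) held 140, 138 and 153 CPM against 184, 163 and 183 (0.31, SE 0.05, adjusted p 8.18e-06). None of these groups overlapped. CDKN1A (chr6:36676460-36687339), the best known arrest target, changed less: 102, 85.2 and 98.8 CPM in U2OS and 112, 103 and 119 in U2OS-AsiSI (0.23, SE 0.06, adjusted p 0.004), and the lowest U2OS-AsiSI library stood just above the highest U2OS library.

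Fold changes of the other risers were smaller than that of FAS. GDF15, a secreted stress cytokine, rose by 0.55 on 30 to 50 reads per library. That call was lost without U2OS siCtrl replicate 2 (0.43), without U2OS-AsiSI siCtrl replicate 3 (0.49) and with DESeq2 (0.54), and the other 21 calls were kept in every alternative run. PHLDA3, an inhibitor of AKT, and TRIAP1, an inhibitor of apoptosis, each rose by 0.48, EI24 by 0.40, and RPS27L, a ribosomal protein paralogue, by 0.33. BAX, the pore-forming death effector, and the cyclin gene CCNG1 each rose by 0.32, GADD45A by 0.31, TNFRSF10B by 0.30 and RRM2B, a ribonucleotide reductase subunit gene, by 0.29. TP53INP1 (0.27), SESN1 (0.25), AEN (0.25), XPC (0.23) and TP53I3 (0.22), a quinone oxidoreductase gene, completed the 22. The 6 tested members that did not pass were PLK2 (0.09), PMAIP1 (0.08), which encodes the BH3-only protein NOXA, POLH (0.06), ZMAT3 (0.00), PPM1D (-0.01) and SESN2 (0.36, SE 0.22).

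Under siINTS11 the same comparison of the cell lines gave 19 higher and 4 lower of 29 members tested, where 22.2% of all 20802 genes tested rose and 21.4% fell. The members' median log2 fold change was 0.21, against 0.01 for all genes. TNFRSF10A passed the low-count filter through its U2OS-AsiSI libraries alone, and without it 18 of 28 were higher and 4 lower (median 0.20; 7 of 10 death genes higher). These libraries are other than those compared under siCtrl. By role, 6 of 6 arrest genes rose, 8 of 11 tested death genes rose and 2 fell, and 1 of 4 repair genes rose. Of 4 tested metabolism genes 3 rose and 1 fell, and of 4 feedback genes 1 rose and 1 fell. By span decile, the median of protein-coding genes ran from 0.30 (shortest) to -0.17 (longest). The arrest genes lie in deciles with medians of 0.12 to 0.30, the repair genes in deciles of -0.04 to 0.04. Among arrest genes PLK2 (0.13) and CCNG1 (0.16) rose less than their decile medians (0.30 and 0.18), the others more. The part of span in these rises was not tested. PLK3 (log2 fold change 0.75, SE 0.06, adjusted p 5.97e-14), GDF15 (0.70, SE 0.13, adjusted p 2.79e-05) and FDXR (0.41, SE 0.05, adjusted p 4.78e-08) were the largest rises among members with more than 50 reads on average. GADD45A and PHLDA3 rose by 0.40 each, BAX by 0.37, BBC3 and TRIAP1 by 0.34 each, AEN by 0.33, PMAIP1 by 0.29 and CDKN1A by 0.28. TNFRSF10B (0.21), TP53I3 (0.21), EI24 (0.18), CCNG1 (0.16), PLK2 (0.13, with overlapping groups), DDB2 (0.11) and the sparsely read SESN2 (0.62, SE 0.22) and TNFRSF10A (0.96, SE 0.37) completed the 19.

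Members that differed between the lines under siCtrl did not all do so under siINTS11. MDM2 held 146, 154 and 152 CPM in U2OS siINTS11 and 148, 159 and 140 in U2OS-AsiSI siINTS11, and these ranges overlap (0.02, SE 0.04, adjusted p 0.735). FAS (0.10, SE 0.06, adjusted p 0.161), RPS27L (0.06), RRM2B (0.06) and XPC (0.04) also did not pass. POLH passed under neither siRNA (0.06 and 0.00). Lower in U2OS-AsiSI were ZMAT3 and TP53INP1, each by -0.23 (SE 0.05), PPM1D (-0.13) and SESN1 (-0.12). Of the 19 rises 13 were kept in every alternative, and of the 4 falls those of ZMAT3 and TP53INP1. Single libraries decided some of the rest: the rises of CCNG1 (0.13) and EI24 (0.13) were lost without U2OS siINTS11 replicate 3, that of PLK2 without U2OS siINTS11 replicate 1 (0.09) or U2OS-AsiSI siINTS11 replicate 2 (0.07), and that of SESN2 without U2OS siINTS11 replicate 2 (0.48) or U2OS-AsiSI siINTS11 replicate 1 (0.47). DDB2 (0.08 to 0.11) and TNFRSF10A (0.77 to 1.03) each failed when any 1 of 5 libraries was left out. DDB2 also failed with the replicate block (0.11, adjusted p 0.0678), DESeq2, median-of-ratios factors and no count filter, 9 of 12 alternatives in all. The falls numbered 2, SESN1 and PPM1D failing, without U2OS siINTS11 replicate 3 or without U2OS-AsiSI siINTS11 replicate 3. In all, the fall of SESN1 was lost in 7 of 13 alternatives, DESeq2 and library totals among them. That of PPM1D was lost in 3 of 12, library totals among them.

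**Figure D2:**
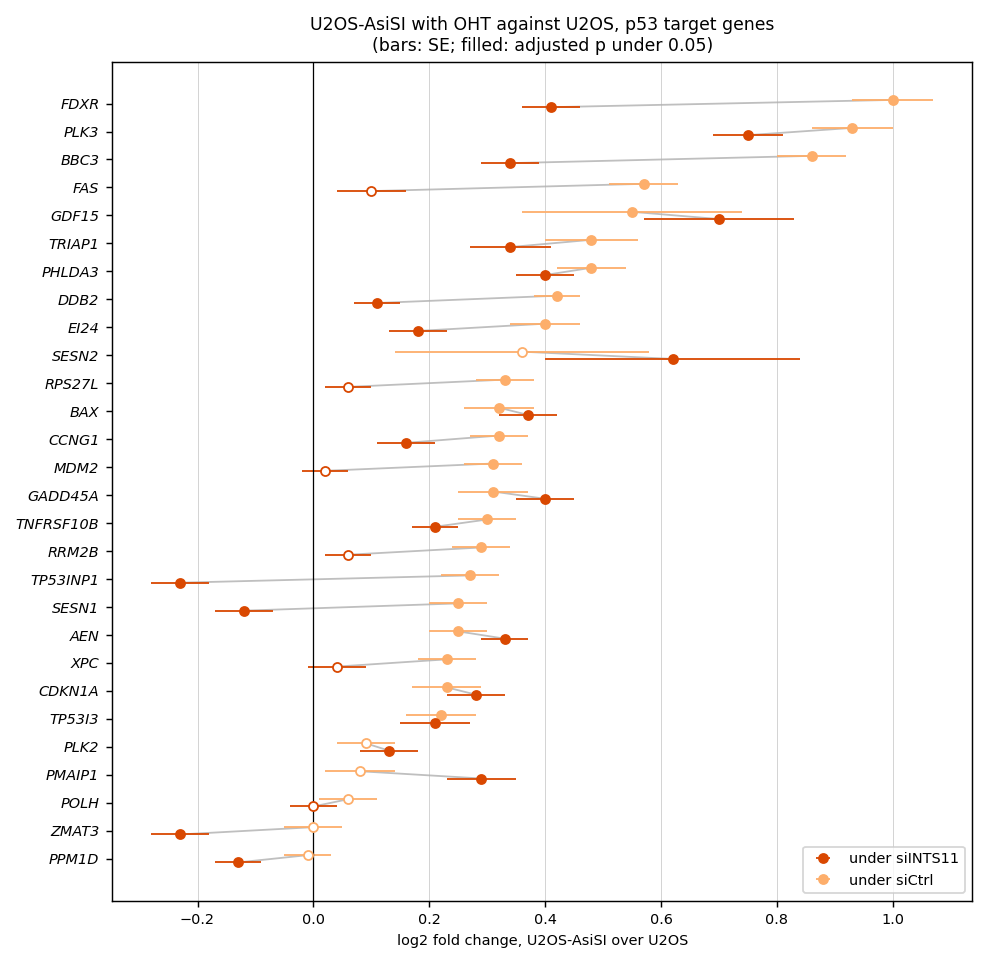
Log2 fold change of U2OS-AsiSI with OHT over U2OS (x axis, bars are SE) for 28 p53 target genes, under siCtrl (light) and siINTS11 (dark), filled where the adjusted p is under 0.05. The light points run from -0.01 for PPM1D to 1.00 for FDXR; the dark points of FAS, MDM2, RPS27L, RRM2B and XPC sit near 0, and those of TP53INP1, SESN1 and ZMAT3 below it.

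In U2OS cells, siINTS11 raised 15 of 28 members tested and lowered 4, where 34.5% of 20687 genes tested rose and 32.4% fell. The members' median log2 fold change was 0.14, against 0.02 for all genes. Among the roles, 4 of 6 arrest genes rose and 0 fell, 5 of 10 tested death genes rose and 1 fell, 2 of 4 repair genes rose and 2 fell, 2 of 4 tested metabolism genes rose and 1 fell, and 2 of 4 feedback genes rose and 0 fell. Scaled by library totals alone, which moves the median of all genes from 0.02 to 0.22, 23 members rose and 1 fell, where 10968 of the 20687 genes rose and 3799 fell. The falls of POLH (-0.05), SESN1 (-0.04) and XPC (0.01) are lost at that scaling, and that of ZMAT3 is kept (-0.18).

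GDF15 showed the largest rise, from 1.09, 0.961 and 1.37 CPM with siCtrl to 2.39, 2.55 and 2.33 with siINTS11 (fold change 2.09, log2 1.07, SE 0.17, adjusted p 6.99e-07). BBC3 rose to 33.6, 38.9 and 34.7 CPM (0.74, SE 0.06, adjusted p 1.06e-14). FDXR rose to 26.5, 26.9 and 25.8 CPM (0.65, SE 0.06, adjusted p 4.74e-12). In these genes each siINTS11 library was above each siCtrl library. PLK3 rose to 21.9, 21.6 and 19.4 CPM (0.57, SE 0.07, adjusted p 2.77e-09) and DDB2 to 88.6, 88.5 and 87.7 CPM (0.42, SE 0.04, adjusted p 3.61e-12), again without overlap.

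Smaller rises in U2OS were those of RPS27L (0.36), TRIAP1 (0.32), CDKN1A (0.24), PHLDA3 (0.24), BAX (0.23), TP53I3 (0.23), GADD45A (0.18), RRM2B (0.17), EI24 (0.15) and AEN (0.13). That of EI24 was lost with DESeq2 (0.13) and without U2OS siCtrl replicate 3 (0.14), U2OS siINTS11 replicate 1 (0.13) or U2OS siINTS11 replicate 2 (0.12), and that of AEN without U2OS siCtrl replicate 2 (0.10). ZMAT3, a zinc-finger RNA-binding protein gene and one of the longest members (chr3:178960121-179072215), fell from 198, 207 and 223 CPM to 156, 164 and 173 (log2 fold change -0.38, SE 0.04, adjusted p 3.77e-10). POLH, the gene of the translesion DNA polymerase eta, fell by 0.25, SESN1 by 0.24 and XPC by 0.19. FAS (0.07), MDM2 (0.04), CCNG1 (0.04), PMAIP1 (0.01), PLK2 (-0.02), TP53INP1 (-0.05), PPM1D (-0.07), TNFRSF10B (0.07) and SESN2 (-0.38, SE 0.24) did not pass. Without U2OS siCtrl replicate 3, TNFRSF10B (0.11) and MDM2 (0.10) did, and TNFRSF10B also with a mean count of at least 50 (0.11). At library totals TNFRSF10B (0.27), FAS (0.27), MDM2 (0.24), CCNG1 (0.24), PMAIP1 (0.21), PLK2 (0.18), TP53INP1 (0.15) and PPM1D (0.13) passed as rises.

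In U2OS-AsiSI cells with OHT, siINTS11 raised 13 of 29 members tested and lowered 8, where 35.4% of 20441 genes tested rose and 32.6% fell. The members' median was 0.05, against 0.03 for all genes, so the direction was split within the set. TNFRSF10A passed the low-count filter through its siINTS11 libraries alone, which selects for a high value there. Without it 12 of 28 rose and 8 fell (median 0.04, with 5 of 10 death genes higher). The 4 called arrest genes all rose, 6 of 11 tested death genes rose and 3 fell, 1 of 4 repair genes rose and 2 fell, 1 of 4 tested metabolism genes rose and 1 fell, and 1 of 4 feedback genes rose and 2 fell. Scaled by library totals alone, which moves the median of all genes from 0.03 to 0.22, 18 members rose and 6 fell, where 10550 of the 20441 genes rose and 4024 fell.

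The falls joined genes of every role but arrest. The arrest genes span 3.13 kb (GADD45A) to 14.4 kb (GDF15), and the members that fell 23.4 kb (TP53INP1) to 112 kb (ZMAT3). The parts of role and span were not tested. Among arrest genes CCNG1 came near the threshold (-0.11, edgeR adjusted p 0.0583), and some alternatives called it lower. SESN1, whose product restrains mTORC1 (chr6:108986437-109094819), held 74.8, 71.3 and 73.8 CPM with siCtrl and 49.9, 47.6 and 46.0 with siINTS11 (log2 fold change -0.61, SE 0.05, adjusted p 2.13e-12). ZMAT3 went from 223, 197 and 205 CPM to 145, 134 and 130 (-0.61, SE 0.05, adjusted p 5.31e-12). TP53INP1, a gene of autophagy and death, held 44.5, 41.0 and 45.6 CPM against 28.4, 28.7 and 31.6 (-0.56, SE 0.06, adjusted p 5.27e-10). No siINTS11 library of these genes reached the siCtrl range. TP53INP1 lies wholly within the span of NDUFAF6 on the opposite strand, and the strand setting of the counts is not given in the sources used here. The same holds for EI24 within FEZ1, TP53I3 within FAM228B and TRIAP1 within AL021546.1. FAM228B itself held 4.58 to 5.64 CPM with siCtrl and 7.6 to 8.7 with siINTS11 in U2OS, and 5.36 to 5.59 and 8.79 to 10.16 in U2OS-AsiSI, and its part in the rise of TP53I3 was not tested. NDUFAF6 held 90.5 to 97.2 CPM (siCtrl) and 105 to 110 (siINTS11) in U2OS. In U2OS-AsiSI it held 99.1 to 100.3 and 92.4 to 95.6, and its part in the values of TP53INP1 was not tested. Opposite-strand genes also overlap 61.9% of the span of XPC, 50.4% of RPS27L and 41.4% of POLH.

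FAS fell to 30.9, 30.2 and 27.4 CPM (log2 fold change -0.40, SE 0.07, adjusted p 3.42e-06), where U2OS siCtrl held 25.1 to 27.1. XPC, whose product starts global genome repair (chr3:14145147-14178783), fell from 69.8, 68.1 and 67.3 CPM to 52.4, 50.8 and 54.8 (-0.37, SE 0.05, adjusted p 6.19e-08), and POLH fell by 0.31. MDM2 fell to 148, 159 and 140 CPM (-0.24, SE 0.05, adjusted p 0.000127). PPM1D, which encodes the phosphatase WIP1 that switches off ATM and p53 signalling (chr17:60600183-60666280), fell from 258, 246 and 250 to 216, 233 and 210 CPM (-0.19, SE 0.05, adjusted p 0.000631). Groups did not overlap in any of these genes. At library totals the falls of MDM2 (-0.05, adjusted p 0.295) and PPM1D (0.00, adjusted p 0.992) are lost, and those of SESN1 (-0.42), ZMAT3 (-0.42), TP53INP1 (-0.37), FAS (-0.21), XPC (-0.18) and POLH (-0.12) are kept.

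**Figure D3:**
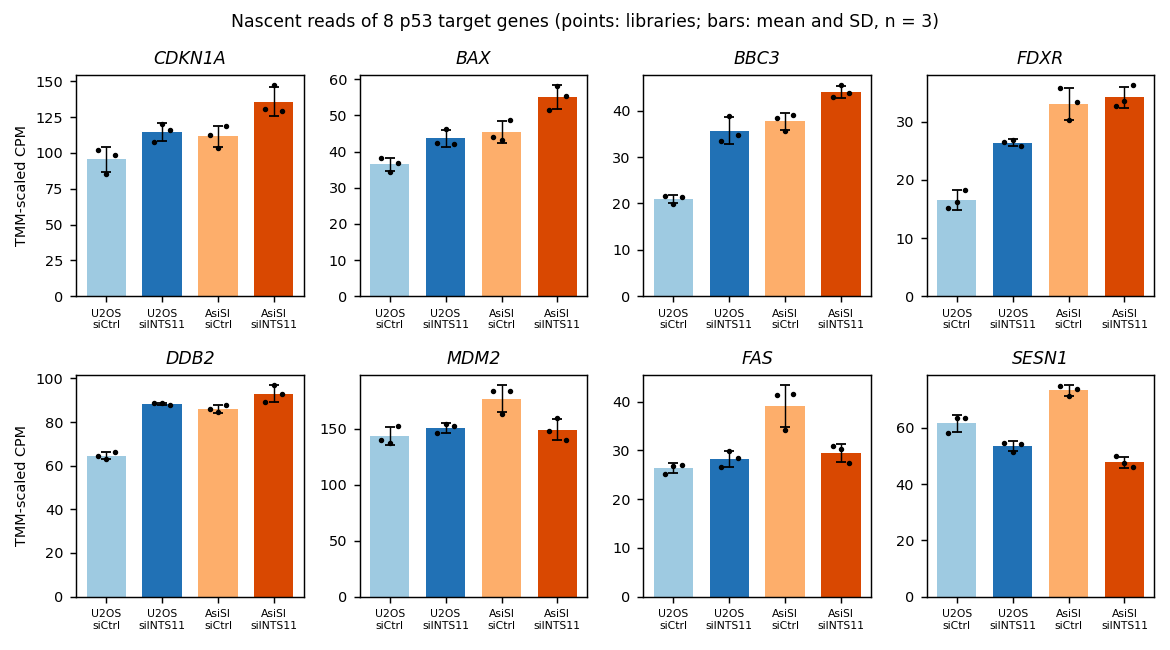
TMM-scaled CPM of 8 p53 target genes in the 4 groups (bars are means with SD, n = 3, points are libraries, the y axis starts at 0). CDKN1A and BAX stand highest in U2OS-AsiSI siINTS11; BBC3, FDXR and DDB2 are lowest in U2OS siCtrl; MDM2, FAS and SESN1 are highest in U2OS-AsiSI siCtrl and lower with siINTS11 in that line.

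The rises in U2OS-AsiSI were led by GDF15, which went from 1.59, 1.57 and 1.83 CPM to 3.25, 4.14 and 4.21 (log2 fold change 1.22, SE 0.15, adjusted p 1.91e-08). PLK3 rose from 26.4, 25.6 and 26.8 CPM to 32.8, 35.6 and 34.8 (0.39, SE 0.06, adjusted p 2.76e-07). CDKN1A rose from 112, 103 and 119 CPM to 131, 147 and 129 (0.29, SE 0.05, adjusted p 1.72e-05), and the groups of these 3 genes did not overlap. BAX rose by 0.29, GADD45A by 0.27, BBC3 by 0.23, PMAIP1 by 0.22, TP53I3 by 0.22 and AEN by 0.21. These 9 rises were kept in every alternative. TNFRSF10A is described above by its reads. The other 3 were TRIAP1 (0.18), PHLDA3 (0.16, with overlapping groups) and DDB2 (0.12). Each was lost with DESeq2 and without U2OS-AsiSI siCtrl replicate 2 or U2OS-AsiSI siINTS11 replicate 2. That of TRIAP1 was also lost without U2OS-AsiSI siCtrl replicate 1, and that of DDB2 with median-of-ratios factors. Those of TRIAP1 and DDB2 were lost as well with no count filter and without U2OS-AsiSI siINTS11 replicate 3. FDXR (0.05), RPS27L (0.09), PLK2 (0.02), TNFRSF10B (-0.02), RRM2B (-0.06), EI24 (-0.07), CCNG1 (-0.11) and SESN2 (-0.11) did not pass. RPS27L did without U2OS-AsiSI siCtrl replicate 3 (0.13), with a mean count of at least 50 (0.14) and among genes under 0.1 reads per base (0.12). CCNG1 passed as a fall without U2OS-AsiSI siCtrl replicate 2 (-0.16) or siINTS11 replicate 2 (-0.15). It also did so with median-of-ratios factors or no count filter (-0.13 each). At library totals RPS27L (0.28), FDXR (0.25), PLK2 (0.21), TNFRSF10B (0.17) and RRM2B (0.13) passed as rises.

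Density of reads moved with these rises. Of the 32 members 14 averaged over 0.1 reads per base of span, among them GADD45A (0.431), AEN (0.364), CDKN1A (0.308), PLK2 (0.303) and PMAIP1 (0.248). With siINTS11 in U2OS-AsiSI 8 of these 14 rose and 2 fell, against 5 higher and 6 lower of the 15 tested members at or under that density (4 and 6 of 14 without TNFRSF10A). In U2OS 8 of the 14 dense members rose and 0 fell, against 7 and 4 of 14, and between the lines under siCtrl 11 rose and 0 fell of 14 in both classes. Within groups, the slope of a gene's log count on the log library total had a median of 0.61 over the 14 dense members and 0.84 over 13 of the others, where counts in proportion to depth give 1. With such slopes the CPM of a dense gene runs higher in a shallower library, and the U2OS-AsiSI siINTS11 libraries were the shallowest. Between the lines under siINTS11, 11 of the 14 dense members rose and 1 fell, against 8 and 3 of 15 (7 and 3 of 14 without TNFRSF10A). The part of depth in these rises was not tested. With only genes under that density in the fit, 5 members rose and 6 fell of 14 in U2OS-AsiSI, 8 rose and 4 fell of 15 in U2OS, and 7 rose and 2 fell of 14 between the lines under siINTS11.

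Gene span moved with the response as well. Across the 29 members tested in U2OS-AsiSI, Spearman's rho between span and log2 fold change was -0.61, and across 13774 protein-coding genes -0.37; genes are not independent replicates, and this is a description. In U2OS the values were -0.50 over 28 members and -0.34 over 13832 genes. Between the lines they were -0.34 over 28 members and -0.48 over 13633 genes under siCtrl. Under siINTS11 they were -0.62 over 29 members and -0.49 over 13896 genes. The members that rose with siINTS11 were mostly short: CDKN1A (10.9 kb), BAX (6.98 kb) and BBC3 (11.9 kb) lie in a span decile of protein-coding genes whose median log2 fold change in U2OS-AsiSI was 0.13. In the shortest decile the median was 0.21. There PHLDA3 (0.16) and TRIAP1 (0.18) rose by less than the median, PMAIP1 by 0.22, and GADD45A (0.27) and PLK3 (0.39) by more. SESN1 (108 kb) and ZMAT3 (112 kb) lie in a decile whose median was -0.21, so their falls of 0.61 were larger than that. TP53INP1 (23.4 kb) and FAS (26.5 kb) fell although the median of their decile was 0.01.

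**Figure D4:**
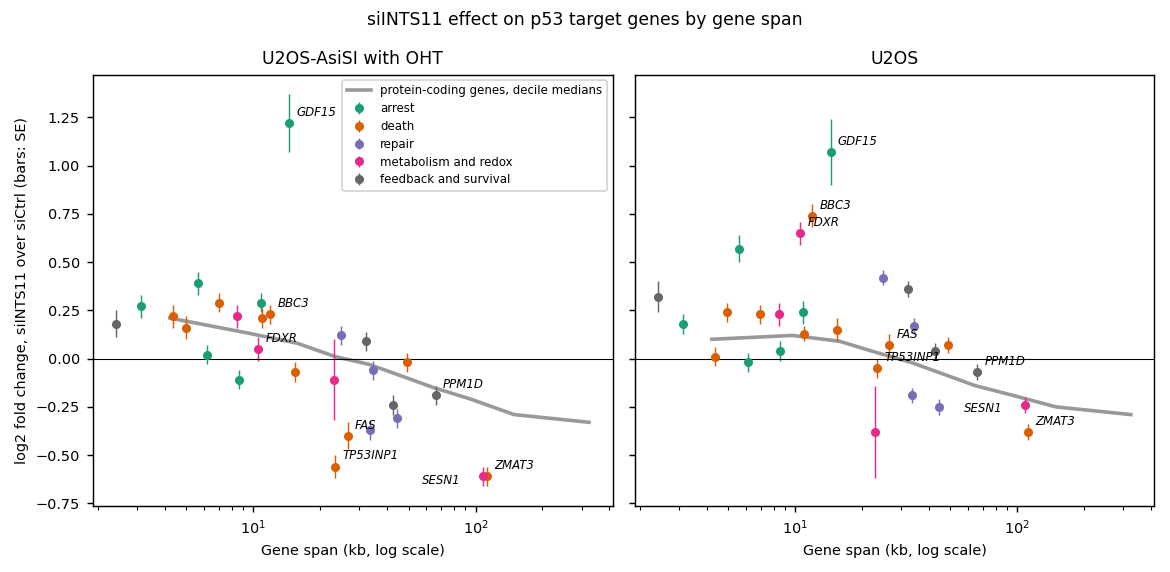
Log2 fold change of siINTS11 over siCtrl (y axis, bars are SE) against gene span in kb (log scale) for 28 p53 target genes coloured by role, in U2OS-AsiSI with OHT (left) and U2OS (right). The grey line joins the medians of protein-coding genes in deciles of span; SESN1, ZMAT3, TP53INP1 and FAS lie below it on the left, and GDF15, BBC3 and FDXR above it on the right.

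The response to siINTS11 differed between the lines for 11 of 29 members tested, all with a lower value in U2OS-AsiSI, and for 0 in the other direction. Of all 21521 genes tested, 3.10% had a lower response in U2OS-AsiSI and 0.762% a higher one, 668 and 164 genes (177 higher and 270 lower with median-of-ratios size factors, where the members stay at 0 higher). At an unadjusted p under 0.05, 16 members passed, and 4001 of all genes. The test is an interaction term fitted to all 12 libraries, and it is equally a test of whether the difference between the lines depends on the siRNA. The median difference was -0.18 for members and -0.05 for all genes. No arrest gene was among the 11, while 4 of 11 tested death genes, 3 of 4 repair genes, 2 of 4 tested metabolism genes and 2 of 4 feedback genes were.

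FDXR and BBC3 had the most negative differences (log2 -0.63, SE 0.09, and -0.55, SE 0.08, adjusted p 0.000153 for each). Both rose with siINTS11 in U2OS, where they started low; in U2OS-AsiSI, FDXR held 35.7, 30.2 and 33.3 CPM with siCtrl and 32.7, 33.5 and 36.3 with siINTS11, ranges that overlap. DDB2 (-0.34, SE 0.06, adjusted p 0.00103) and RPS27L (-0.31, SE 0.06, adjusted p 0.00586) were also lowest in U2OS siCtrl. RPS27L held 55.7, 54.7 and 54.3 CPM there and 71.0, 73.7 and 71.4 in U2OS with siINTS11, against 68.2, 65.9 and 72.9 (siCtrl) and 71.7, 77.2 and 70.9 (siINTS11) in U2OS-AsiSI, so the last 3 groups overlap.

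TP53INP1 (-0.54, SE 0.08, adjusted p 0.000153), FAS (-0.50, SE 0.09, adjusted p 0.00192), SESN1 (-0.41, SE 0.07, adjusted p 0.000496) and MDM2 (-0.32, SE 0.07, adjusted p 0.00913) had another order. They were highest in U2OS-AsiSI siCtrl, and siINTS11 lowered them in that line. In U2OS, TP53INP1 held 34.5, 36.7 and 37.2 CPM with siCtrl and 33.6, 36.1 and 37.2 with siINTS11, and FAS and MDM2 overlapped likewise. ZMAT3 (-0.26, adjusted p 0.032), RRM2B (-0.26, adjusted p 0.0279) and XPC (-0.22, adjusted p 0.0383) passed narrowly.

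BBC3, FAS, TP53INP1, DDB2, SESN1 and FDXR passed in all alternatives run. The call of MDM2 was lost without U2OS-AsiSI siINTS11 replicate 3 and that of RPS27L without U2OS siCtrl replicate 3. Those of ZMAT3, RRM2B and XPC were lost in 13 of 19, 13 of 18 and 18 of 19 alternatives, and 7 members passed without U2OS siCtrl replicate 3 or without U2OS-AsiSI siINTS11 replicate 3. Among arrest genes the difference was 0.02 for CDKN1A (SE 0.09), 0.05 for GADD45A (SE 0.09) and 0.01 for PLK2 (SE 0.08). That of GDF15 was 0.12 (SE 0.23). PLK3 (-0.21, SE 0.09, adjusted p 0.191) and CCNG1 (-0.19, SE 0.07) had the direction of the called members. At an unadjusted p under 0.05 in the interaction test, 2 of the 6 arrest genes passed. The lack of calls after adjustment does not show that the lines respond alike. Since this test, the comparisons of siRNAs and the comparisons of lines reuse the same libraries, they are different readings of 1 set of values.

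**Figure D5:**
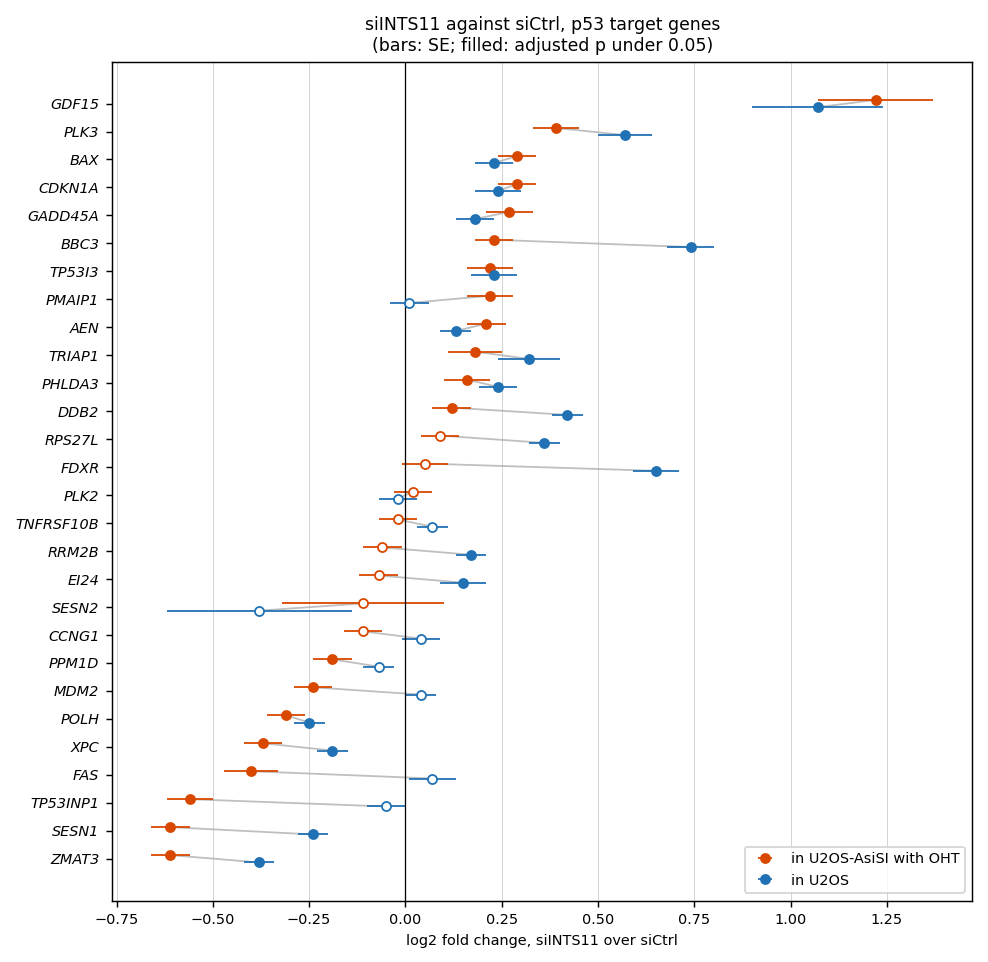
Log2 fold change of siINTS11 over siCtrl (x axis, bars are SE) for 28 p53 target genes in U2OS-AsiSI with OHT (orange) and U2OS (blue), filled where the adjusted p is under 0.05. FDXR and BBC3 are far to the right in U2OS only, at 0.65 and 0.74 against 0.05 and 0.23, and TP53INP1 and FAS are near 0 in U2OS and at -0.56 and -0.40 in U2OS-AsiSI.

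MDM4, the MDM2 relative that masks the p53 activation domain, held 118 to 135 CPM over all libraries, and none of its tests passed (for siINTS11 in U2OS-AsiSI -0.10, which passes at -0.12 with DESeq2, median-of-ratios factors or no count filter, at -0.10 with the replicate block and at -0.13 without U2OS-AsiSI siINTS11 replicate 2). At library totals it passes as a rise in U2OS (0.14) and between the lines under siCtrl (0.10). CDKN2A, which encodes the MDM2 inhibitor ARF and the CDK inhibitor p16, held 0 to 2 reads per library.

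Among 29 regulators of p53, the siINTS11 comparison lowered 17 and raised 3 of 28 tested in U2OS-AsiSI (median -0.14). In U2OS it lowered 16 of 28 and the other 12 did not pass (median -0.14). Between the lines under siCtrl 1 was higher and 8 lower (median -0.04; 4 and 5 at library totals), and under siINTS11 7 were higher and 9 lower (median -0.04). Of all genes, 35.4% rose and 32.6% fell with siINTS11 in U2OS-AsiSI and 34.5% and 32.4% in U2OS, while 17.8% were higher and 17.2% lower between the lines under siCtrl and 22.2% and 21.4% under siINTS11. TP73, a p53 family gene, went from 30.8 to 36.2 CPM with siCtrl to 18.6 to 20.2 with siINTS11 in U2OS-AsiSI (-0.79, SE 0.06). In U2OS it fell by 1.25, and that difference between the lines passed the interaction test (0.43, adjusted p 0.00528). The methyltransferase gene SETD7 and the p53 ubiquitin ligase gene COP1 fell by 0.45 each. These are long genes (83.7, 111 and 262 kb). At library totals the split of regulators in U2OS-AsiSI was 9 higher and 6 lower, and in U2OS 11 higher and 5 lower, so the lower majority depends on the scaling.

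A further 45 p53 targets, not among the 32, gave 25 higher and 3 lower of 40 tested between the lines under siCtrl (median 0.28), and 18 higher and 4 lower of 41 under siINTS11 (median 0.14). With siINTS11, 20 rose and 16 fell of 41 in U2OS (23 and 7 at library totals), and 13 rose and 18 fell of 41 in U2OS-AsiSI (21 and 13 at library totals); the shares of all genes were 34.5% and 32.4% in U2OS and 35.4% and 32.6% in U2OS-AsiSI, and between the lines 17.8% and 17.2% under siCtrl and 22.2% and 21.4% under siINTS11. The interaction was passed by 9 of 41, all lower in U2OS-AsiSI, against 3.10% of all genes. PGF, a placental growth factor gene, rose by 1.30 in U2OS-AsiSI and 1.22 in U2OS, where its responses did not pass the test of a difference (0.04, adjusted p 0.871). TNFAIP8 (-1.07 in U2OS-AsiSI, -0.99 in U2OS) and SUSD6 (-0.67 and -0.66) fell in both lines.

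Cell cycle genes repressed downstream of p21 through the DREAM complex were the third list. Of 30 tested between the lines under siCtrl, 13 were lower and 3 higher in U2OS-AsiSI (median -0.09, 6 lower and 6 higher at library totals). Under siINTS11, 16 were lower and 7 higher of 29 (median -0.11). The siINTS11 comparison lowered 17 and raised 3 of 29 in U2OS-AsiSI and lowered 17 and raised 1 of 29 in U2OS, which at library totals became 6 lower and 11 higher and 3 lower and 11 higher. Of all genes 32.6% fell and 35.4% rose in U2OS-AsiSI, 32.4% and 34.5% in U2OS, and between the lines 17.2% were lower under siCtrl and 21.4% under siINTS11. CDC25C, a phosphatase gene of mitotic entry, fell with siINTS11 by 0.59 in U2OS-AsiSI and 0.27 in U2OS, a difference that passed the interaction test (-0.36, adjusted p 0.0103). PLK4, of centriole duplication, fell by 0.41 and 0.36, and ECT2, of cytokinesis, by 0.39 and 0.29.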

How the data were processed

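TT-seq libraries were grouped and numbered by the sample titles. The labels do not say whether replicates came from separate cultures, so p-values measure the spread between these samples. Each deposited count table used here held a U2OS library and the U2OS-AsiSI library of the same siRNA and replicate number. The values are raw read counts over the whole gene span, introns included, since length equals span in 60504 genes with 1 interval. The submitters' processing notes name Trimmomatic 0.36, STAR 2.7, featureCounts, deepTools and hg38; strand, duplicate and multi-mapping settings are not given in the sources used here.

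Counts were tested with edgeR 4.0.16 (R 4.3.3; TMM scaling, filterByExpr, robust quasi-likelihood fit, two-sided, Benjamini-Hochberg over all genes tested, threshold 0.05), each pair of groups in its own fit and the interaction over all 12 libraries; DESeq2 1.42.0 was an alternative, with median-of-ratios factors, library totals alone, other count filters, only genes under 0.1 reads per base, a replicate block and each library left out. CPM per library is TMM-scaled over all 12 libraries. The code was checked on simulated counts, where false calls were a larger share of calls than the threshold in both siRNA comparisons and the interaction, so calls near the threshold there are less sure. Every gene of the set was named, with MDM4, INTS11 as the siRNA's target, and the 3 genes with the smallest adjusted p in U2OS-AsiSI from each of 3 further lists. CDKN2A and AC008012.1 were named after their values were seen. Values of NDUFAF6 and FAM228B, which overlap members, were also given outside that choice. 1 further gene that the rule names is not reported here, and the list counts leave it out. The members and lists were chosen with earlier results of these data known. All replicate pairs differed by more than sampling noise (chi-square per degree of freedom 1.84 to 3.06). Yeast spike-in reads were not used here.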

Additional observations from a re-analysis of the deposited data

Results flagged for a closer look

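The interaction test, which asks whether the siINTS11 response itself differs between U2OS-AsiSI with OHT and U2OS, marked 11 p53 target genes for another look. Each had a lower log2 response in U2OS-AsiSI: FDXR by a difference of -0.63, BBC3 of -0.55, TP53INP1 of -0.54, FAS of -0.50, SESN1 of -0.41, DDB2 of -0.34, MDM2 of -0.32, RPS27L of -0.31, ZMAT3 and RRM2B of -0.26 each, and XPC of -0.22. Cell line, enzyme and OHT cannot be told apart in this test. New INTS11 RNA itself changed by -0.42 with siINTS11 in U2OS and by -0.13 in U2OS-AsiSI. That difference did not pass (0.25, edgeR adjusted p 0.235), and its part in the 11 responses was not tested.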

How the results depend on the processing

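Restricting the fit to genes under 0.1 reads per base left 14 or 15 members, of which 11 passed (5 higher) for siINTS11 in U2OS-AsiSI, 12 (8 higher) for siINTS11 in U2OS, 11 (11 higher) between the lines under siCtrl, 9 (7 higher, 2 lower) between them under siINTS11 and 7 (7 lower) for the interaction; fewer genes were tested. Library totals alone gave 23 higher and 1 lower for siINTS11 in U2OS and 2 lower between the lines under siINTS11. That scaling also turned the sign, in U2OS-AsiSI, of CCNG1 (0.08), TNFRSF10B (0.17), EI24 (0.12), RRM2B (0.13), SESN2 (0.08), INTS11 (0.06) and MDM4 (0.09), in U2OS of PLK2 (0.18), TP53INP1 (0.15), XPC (0.01), PPM1D (0.13) and MDM4 (0.14), and between the lines under siCtrl of ZMAT3 (0.05) and PPM1D (0.05). A mean count of at least 50 turned TNFRSF10B in U2OS-AsiSI (0.04), PLK2 in U2OS (0.02) and the TP53I3 interaction (0.02). POLH between the lines under siINTS11 was -0.01 with median-of-ratios factors, with no count filter and with DESeq2, the TNFRSF10A interaction was 0.01 with no count filter, and ZMAT3 between the lines under siCtrl was 0.02 among genes under 0.1 reads per base. The cause of these changes of sign was not tested.

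With each library left out in turn, falls between the lines under siINTS11 numbered 2 to 4 and interaction calls 7 to 10, all lower. Values crossing 0 ran, for siINTS11 in U2OS-AsiSI, from -0.04 to 0.07 (PLK2), -0.27 to 0.05 (SESN2), -0.01 to 0.12 (FDXR) and -0.06 to 0.01 (TNFRSF10B), and in U2OS from -0.07 to 0.02 (PLK2) and -0.01 to 0.06 (PMAIP1). Between the lines they ran from -0.06 to 0.05 (ZMAT3) and -0.03 to 0.03 (PPM1D) under siCtrl, and from -0.03 to 0.02 (POLH, MDM4) and -0.03 to 0.07 (MDM2) under siINTS11. In the interaction they ran from -0.04 to 0.09 (CDKN1A), -0.04 to 0.07 (PLK2), -0.02 to 0.07 (BAX), -0.01 to 0.12 (GADD45A), -0.38 to 0.40 (TNFRSF10A) and -0.08 to 0.03 (TP53I3). Interaction calls over all genes numbered 832, and 447 with median-of-ratios factors, 531 with the replicate block, 423 with DESeq2, 582 among genes under 0.1 reads per base and 286 to 946 with a library left out.

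Same-numbered libraries did not deviate together (correlations of deviations from group means 0.00699 to 0.137 for siINTS11 in U2OS-AsiSI, and some below 0 elsewhere), so the numbers are not taken as pairs. With the replicate block, 13 members rose and 8 fell for siINTS11 in U2OS-AsiSI, 15 and 4 in U2OS, 22 and 0 between the lines under siCtrl, 18 and 4 under siINTS11, and 10 passed the interaction. Few reads limit what can be said of TNFRSF10A, TNFRSF10C, SPATA18, SESN2 and GDF15.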
